A study of Rattus norvegicus with 6 samples.

Results

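The genes described here are developmental and smooth muscle transcription factors of brain mural cells: the forkhead, T-box, SOX, MEF2, TEAD, GATA, RUNX, ZIC, SNAI, TWIST, EBF, NR2F, PBX, MEIS, HOX, DLX, PRRX, MSX, sine oculis, PAX, NKX and LHX families, with SRF and its coactivators. They were chosen by gene symbol alone, and 105 of the 14607 genes of the table matched. Symbols of this kind also take in Twistnb, which encodes a subunit of RNA polymerase I, and Runx1t1, a corepressor that does not itself bind DNA. Mkl2 and the HAND genes have no row and were not analysed here. All samples came from the cerebral cortex of male Sprague-Dawley rats of 4 to 5 weeks, without treatment. VSMCs (3 samples) came from arterioles that had been digested a second time. They were sorted positively, with a lectin, after endothelial cells and microglia had been removed with antibodies. The mcPCs (3 samples) were the cells of the first digest left after endothelial cells, microglia, astrocytes and oligodendrocytes had been removed with antibodies. Each sample was pooled from several rats. The VSMC fraction may hold some ensheathing pericytes, and cell type and isolation procedure cannot be told apart. In such bulk samples, fewer cells of a type and less RNA per cell cannot be told apart either.

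The deposited values are the authors' means of each cell type, so no SD between samples can be given. Levels are in TPM, a measure per transcript length that is scaled to a fixed total. Differences are the log2 ratio of mean normalized counts of mcPCs over VSMCs, positive when higher in mcPCs, with a 95% interval that covers counting error only. The means came to 61978061 reads per VSMC sample and 47990230 per mcPC sample. Smooth muscle markers were lower in mcPCs for 10 of 10 genes, with a median log2 ratio of -7.90, and capillary pericyte markers higher for 7 of 7, with a median of 6.17. Erythrocyte genes (10 of the 12 listed had a row) summed to 7151 TPM in VSMCs against 541852 TPM in mcPCs. The median gene of the table was 3.47 times as abundant in VSMCs as in mcPCs in TPM, and the median log2 ratio of all genes was -1.72 in TPM against 0.01 in normalized counts and -0.55 in counts scaled to the same total.

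Smooth muscle gene expression is controlled by SRF, a MADS-box protein that binds the CArG box in the promoters of contractile and immediate-early genes. Its coactivator myocardin directs it to contractile genes in smooth and cardiac muscle, and myocardin-related factors such as MKL1 carry signals from the actin cytoskeleton. MEF2 proteins share the MADS domain, and TEAD proteins bind DNA for the coactivators YAP and TAZ. The mural cells of the forebrain come largely from the neural crest and head mesenchyme, in which forkhead, T-box, homeobox and ZIC factors set regional identity. DLX, PAX6 and MEIS2 are best known from forebrain neurons and their progenitors, and SOX17, SOX18 and GATA2 from endothelial cells.

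Promoter letters are shown for Srf and Mef2a, which held a motif bound by their own MADS-box family, and for Ebf3, which held a CArG box and has the second lowest log2 ratio of all members. Each run is the 250 bases before the annotated start, from RefSeq on GRCr8, 5′ to 3′ on the strand of the gene. The Srf promoter (chr9:21923826-21924075, plus strand) held 2 CArG boxes, written in capitals, and that of Ebf3 (chr1:201544306-201544555, minus strand) held 1. Mef2a (chr1:130392163-130392412, minus strand) held a MEF2 site, in capitals.
Srf: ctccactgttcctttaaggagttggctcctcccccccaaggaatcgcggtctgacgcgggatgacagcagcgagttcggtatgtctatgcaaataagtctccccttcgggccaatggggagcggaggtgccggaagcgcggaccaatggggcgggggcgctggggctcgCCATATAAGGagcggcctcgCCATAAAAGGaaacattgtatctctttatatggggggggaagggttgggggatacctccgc
Ebf3: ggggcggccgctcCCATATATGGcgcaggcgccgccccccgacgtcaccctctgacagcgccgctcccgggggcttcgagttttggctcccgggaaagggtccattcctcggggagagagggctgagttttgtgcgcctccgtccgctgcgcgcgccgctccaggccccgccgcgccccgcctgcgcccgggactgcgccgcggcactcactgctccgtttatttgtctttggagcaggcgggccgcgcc
Mef2a: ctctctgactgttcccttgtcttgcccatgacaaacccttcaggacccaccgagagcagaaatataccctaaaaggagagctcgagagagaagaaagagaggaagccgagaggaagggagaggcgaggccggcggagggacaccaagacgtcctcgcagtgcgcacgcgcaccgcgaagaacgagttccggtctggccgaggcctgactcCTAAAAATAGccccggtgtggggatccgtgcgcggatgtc

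On both strands, CArG boxes were found in 4 of the 66 members with a promoter in the table (6.06%), namely Srf, Ebf3, Nkx2-1 and Twistnb, and in 1.5% of all 33469 promoters. The boxes of Srf lay 81 to 72 and 61 to 52 bases before the start. Nkx2-1 had a log2 ratio of 1.38 (-0.30 in TPM as it stands) and Twistnb one of -0.08. MEF2 sites occurred in Mef2a alone among the members (1.52%) and in 0.523% of all promoters. The TEAD letters GGAATG were found in Ebf3, Msx1 and Tbx6, or 4.55% of members against 12.1% of all promoters. The forkhead letters GTAAACA occurred in Foxp1 alone and the GATA letters AGATAA in Six4 alone (1.52% each), against 3.21% and 10.3% of all promoters. Members were counted once each, by a match in any promoter listed for them, while the background counts promoters. These are matches of letters, not measured binding.

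Of the 105 members, 36 (34.3%) were at least 2-fold higher in VSMCs, against 13.8% of all genes in the table, and 30 (28.6%) were at least 2-fold higher in mcPCs, against 21.6% of all genes. Together 66 members passed 2-fold, against 35.4% of all genes. Those higher in VSMCs made up 54.5% of the 66 in normalized counts, 85.0% of those past 2-fold in TPM as it stands and 68.7% in counts scaled to the same total. Of all genes, 72.3% were at least 2-fold higher in VSMCs and 7% in mcPCs in TPM as it stands, and 28.6% and 15.2% in counts scaled to the same total. The median log2 ratio was -0.09 over the members and 0.01 over all genes. The whole counting interval lay past 2-fold for 34 and 25 members, against 11.9% and 18.7% of all genes. At least 4-fold were 14 members higher in VSMCs (5.64% of all genes) and 17 higher in mcPCs (12% of all genes). A difference of 16-fold or more was seen for 4 members higher in VSMCs (1.49% of all genes) and 11 higher in mcPCs (4.07% of all genes). Just past the 2-fold limit were Zic5 with a log2 ratio of -1.01 and Zic2 with 1.0, and just short of it Foxj3 with -0.99 and Zic4 with 0.93. The counting intervals of Zic5, Zic2 and Foxj3 included the limit, and that of Zic4 did not.

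The share of members in each direction differed with the level. Among the 40 members with a mean normalized count of 1000 or more, 19 (47.5%) were higher in VSMCs and 4 (10%) in mcPCs, against 17.6% and 10.8% of all genes of that level. Of the 34 members under 100 normalized counts, 5 (14.7%) were higher in VSMCs and 16 (47.1%) in mcPCs, against 10.9% and 39.7% of all genes. The middle range of 100 to 1000 counts held 31 members, 12 of them higher in VSMCs and 10 in mcPCs, that is 38.7% and 32.3% against 10.8% and 25% of all genes. The median level of members higher in VSMCs was 23.5 TPM in that cell type, against 2.10 TPM in mcPCs. For members higher in mcPCs it was 0.508 TPM there, against 0.203 TPM in VSMCs. Of these, 11 rested on fewer than 10 reads per VSMC sample, and 6 (Sox13, Tead2, Zic2, Snai1, Sox11 and Tbx6) had at least 0.8 TPM in VSMCs, the minimum the study set on its final gene set.

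**Figure D1:**
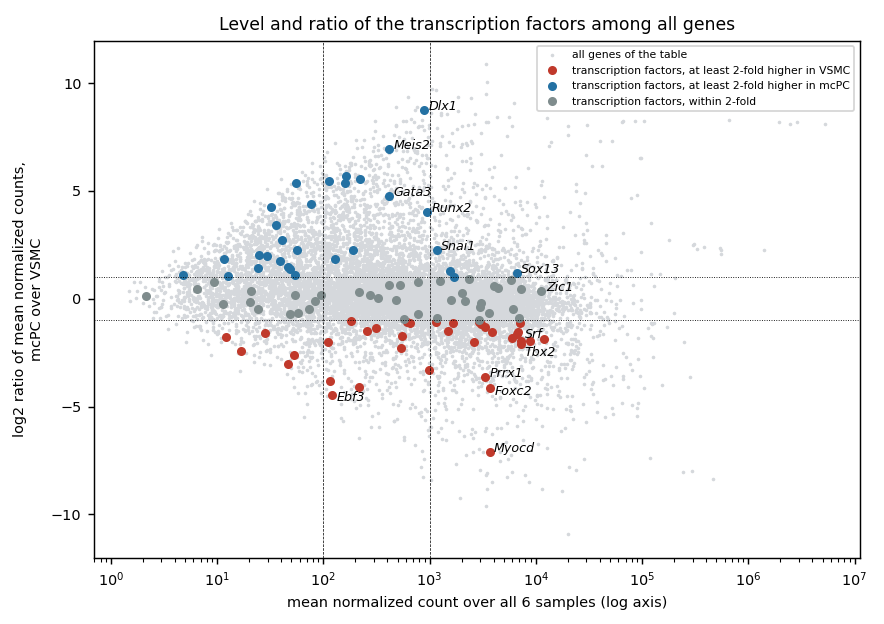
Each point is a gene, with its mean normalized count over all 6 samples on a log axis and its log2 ratio of mcPCs over VSMCs. Grey points are all 14607 genes and larger points the transcription factors, with 2-fold limits dotted and count limits of 100 and 1000 dashed. At 1000 counts or more, 19 of the 40 transcription factors lie below the lower limit and 4 above the upper one.

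The transcription factor most different between the cell types on the VSMC side was Myocd (ENSRNOG00000003669), the smooth muscle coactivator of SRF. Its mean level was 59.6 TPM in VSMCs, from 9765 reads per sample, and 0.117 TPM in mcPCs, from 41.2 reads per sample. The log2 ratio was -7.12 (95% counting interval -7.41 to -6.89), a 139-fold difference. In VSMCs Myocd lay above 82.9% of the listed genes, and in mcPCs above 5.59%. Srf itself (ENSRNOG00000018232) differed far less, with 102 TPM in VSMCs against 7.35 TPM in mcPCs, and a log2 ratio of -1.98 (95% counting interval -2.02 to -1.94). Mkl1 (ENSRNOG00000018803), the actin-regulated coactivator, had 48.1 and 6.0 TPM and a log2 ratio of -1.19 (95% counting interval -1.24 to -1.14). In mcPCs Srf and Mkl1 therefore remained above 68.5% and 63.4% of the listed genes, where Myocd was near the lowest levels of the table.

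The genes that act with SRF or under it were taken from lists. Among 7 further cofactors with a row, 3 were at least 2-fold higher in VSMCs and 1 in mcPCs, from Csrp1 with a log2 ratio of -5.44 (3925 and 25.8 TPM) to Fhl2 with 1.98 (4.44 and 5.20 TPM). Fhl2, a LIM protein, was slightly more abundant in mcPCs even in TPM. Of 12 contractile, adhesion and ion channel genes regulated by SRF and myocardin, 11 were at least 2-fold higher in VSMCs and none in mcPCs. Their median log2 ratio was -7.08, from Myh11 with -8.35 to Vcl with -0.68. Myocd, at -7.12, lay within the range of these genes. The immediate-early genes with a row, which SRF also regulates, were at least 2-fold higher in VSMCs for 5 of 5, from -4.86 for Fos to -3.41 for Egr2. VSMCs had the additional digestion, so cell type and procedure cannot be told apart for these genes.

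All 4 MEF2 genes were at least 2-fold higher in VSMCs, beside 13.8% of all genes. Mef2d was the most abundant, with 184 TPM in VSMCs against 17.8 TPM in mcPCs and a log2 ratio of -1.56 (95% counting interval -1.60 to -1.53). Mef2c had 98.4 and 7.10 TPM (log2 ratio -1.96) and Mef2a 73.0 and 8.29 TPM (log2 ratio -1.32). Their shares of the summed MEF2 TPM hardly moved, with 50.9% and 53.0% for Mef2d in VSMCs and mcPCs, 27.3% and 21.1% for Mef2c, and 20.3% and 24.7% for Mef2a. Mef2c also differed in the authors' mean effective length, which was 4428 bases in VSMCs and 5406 in mcPCs, or 1.22 times as long. The effective length moves with the mix of transcripts assigned to a gene. It exceeded 1.1 times for 6 members, Mef2c, Ebf1, Pbx2, Pbx3, Pax6 and Runx1t1, against 3.01% of all genes, and for none was the VSMC length longer by that factor. Of 7 regulators of MEF2, 3 were at least 2-fold higher in VSMCs and none in mcPCs, from the class IIa deacetylase Hdac4 with -1.2 to Mapk7 with 0.32.

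The TEAD genes differed from one another in direction. Tead3 had 57.3 TPM in VSMCs against 4.61 TPM in mcPCs, with a log2 ratio of -1.84 (95% counting interval -1.88 to -1.80), and Tead1 had a log2 ratio of -1.13. Tead2 had 16.6 TPM in VSMCs against 11.4 TPM in mcPCs and a log2 ratio of 1.28 (95% counting interval 1.22 to 1.34), although in TPM as it stands, a scale that lowers most genes in mcPCs, the value was -0.53. A share within a cell type does not depend on that choice. Tead3 made up 58.4% of the summed TEAD TPM in VSMCs and 23.5% in mcPCs, and Tead2 16.9% and 58.3%. The log2 ratio of Tead2 exceeded that of Tead3 by 3.12 (95% counting interval 3.04 to 3.19). Among the TEAD coactivators and competitors with a row, 3 of 4 were at least 2-fold higher in VSMCs, including Yap1 with 99.3 and 4.11 TPM (log2 ratio -2.77) and Vgll3 with -2.98. Of 6 TEAD target genes 2 were higher in VSMCs, from Ankrd1 with -4.01 to Amotl2 with 0.67.

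**Figure D2:**
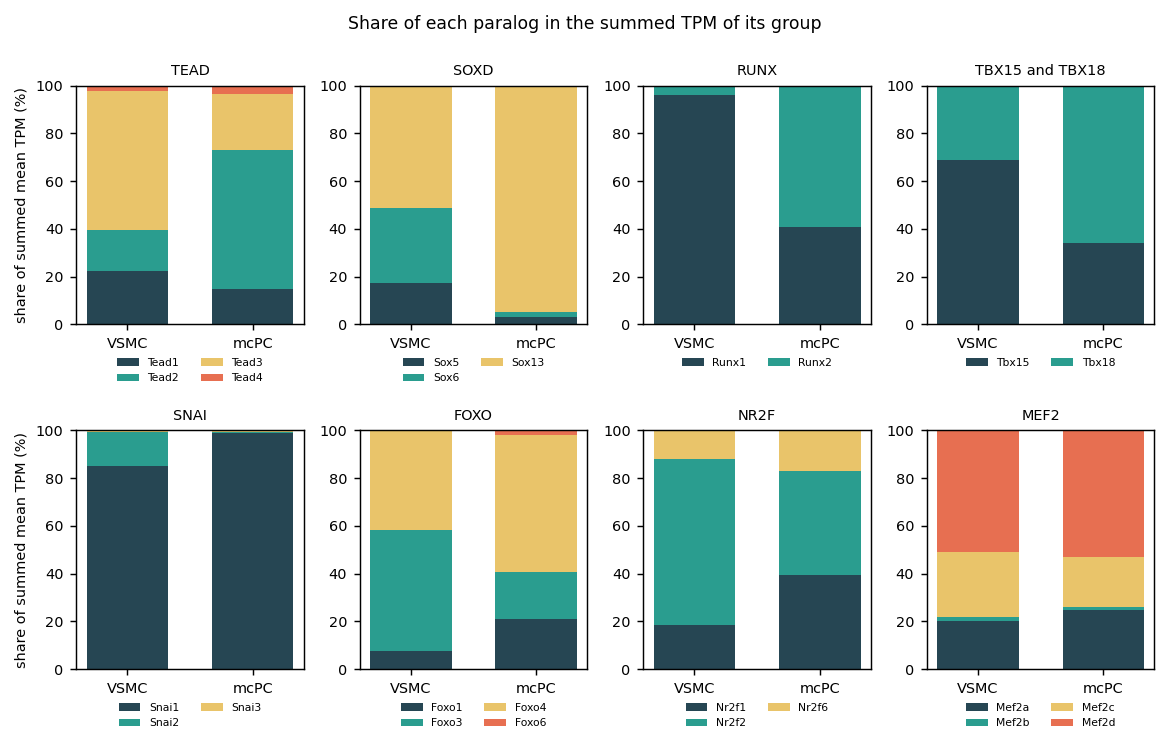
Bars give each gene's share, in percent, of the summed mean TPM of its group in VSMCs and in mcPCs, without error bars because the values are the means of a cell type. Tead2 goes from 16.9% to 58.3%, Sox13 from 51.4% to 94.7% and Runx2 from 4.03% to 59.3%, while the MEF2 shares stay close.

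Among the 24 forkhead genes, 9 were at least 2-fold higher in VSMCs, 5 in mcPCs and 10 neither, beside 13.8% and 21.6% of all genes higher in VSMCs and mcPCs. The FOXC genes, which are needed for neural crest and vessel wall development, were on the VSMC side. Foxc2 had 97.3 TPM in VSMCs against 1.55 TPM in mcPCs, with a log2 ratio of -4.16 (95% counting interval -4.26 to -4.07). Foxc1 had 173 and 13.5 TPM and a log2 ratio of -1.86 (95% counting interval -1.89 to -1.83). Foxc2 made up 36.0% of the summed FOXC TPM in VSMCs and 10.3% in mcPCs. Foxl1 (9.09 and 0.183 TPM, log2 ratio -3.81) and Foxd2 (2.51 and 0.115 TPM, log2 ratio -2.62) were lower in mcPCs too, each from 11 reads per mcPC sample.

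Foxs1, a forkhead gene known from vessel-associated and neural crest cells, was the most abundant forkhead gene in either cell type, with 233 TPM in VSMCs against 47.5 TPM in mcPCs. Its log2 ratio was -0.46 (95% counting interval -0.49 to -0.43), within the 2-fold limits. FOXO genes, which act downstream of growth factor signalling, differed from one another. Foxo3 had 56.1 and 3.97 TPM and a log2 ratio of -2.02, and made up 50.5% of the FOXO TPM in VSMCs and 19.8% in mcPCs. Foxo1 had a share of 7.59% and 20.9%, and its log2 ratio exceeded that of Foxo3 by 2.77 (95% counting interval 2.67 to 2.88). Foxo6 was low, with 0.0465 and 0.363 TPM and a log2 ratio of 4.27 from 3 reads per VSMC sample.

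Of the 9 T-box genes, 5 were at least 2-fold higher in VSMCs and 1 in mcPCs, beside 13.8% and 21.6% of all genes. Their median log2 ratio was -1.56. Tbx2 (ENSRNOG00000003517), a repressor, was the most abundant of all members in VSMCs, with 454 TPM, and had 30.1 TPM in mcPCs. Its log2 ratio was -2.11 (95% counting interval -2.14 to -2.07). Tbx15 had 106 and 9.73 TPM (log2 ratio -1.63), Tbx3 73.2 and 7.02 TPM (log2 ratio -1.56), and Tbx10 17.2 and 0.274 TPM (log2 ratio -4.12, from 17 reads per mcPC sample). Tbx18, a close relative of Tbx15 and a known mural cell marker, had 47.6 and 18.8 TPM and a log2 ratio of 0.45 (95% counting interval 0.43 to 0.48), or -1.34 in TPM as it stands and -0.10 in counts scaled to the same total. Tbx15 held 69.0% of the sum of both genes in VSMCs and Tbx18 65.8% in mcPCs.

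Of the 19 homeobox and PAX genes outside PBX and MEIS, 3 were at least 2-fold higher in VSMCs, 7 in mcPCs and 9 neither. The shares of all genes were 13.8% and 21.6%. Prrx1 and Msx1 were among the 3, while Prrx2 and Msx2, with log2 ratios of -0.47 and -0.70, were within 2-fold. Prrx1 was second in abundance among the members in VSMCs, with 382 TPM, and had 8.61 TPM in mcPCs. Its log2 ratio was -3.63 (95% counting interval -3.72 to -3.55). Its TPM rests on a mean effective length of 558 bases in VSMCs, shorter than the 888 bases of Tbx2 or the 3772 bases of Foxc1, and 8711 reads per VSMC sample. In reads per sample Foxc1 was the higher, with 26047. Msx1 had 8.42 and 0.885 TPM and a log2 ratio of -1.49, and Hoxa7, the most abundant HOX gene, 1.38 and 0.261 TPM (log2 ratio -0.67). Six5, the most abundant sine oculis gene, had 28.7 and 7.91 TPM and a log2 ratio of -0.05 (95% counting interval -0.11 to 0.01), which includes 0. Nkx2-1 and Lhx9 were at 0.442 and 0.340 TPM and at 0.216 and 0.101 TPM, levels at which most genes of the table are higher.

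The PBX and MEIS proteins are homeodomain cofactors that bind DNA together. Meis3 had 79.6 TPM in VSMCs against 31.7 TPM in mcPCs (log2 ratio 0.49) and Pbx2 80.5 and 32.4 TPM (log2 ratio 0.58), so both were abundant in either cell type, and on the TPM scale as it stands the values were -1.32 and -1.31. In counts scaled to the same total Meis3 was at -0.06. Meis2 had 0.0741 TPM in VSMCs against 2.89 TPM in mcPCs, with a log2 ratio of 6.95 (95% counting interval 6.58 to 7.86), and still made up only 8.30% of the MEIS TPM in mcPCs. Of 5 partners of these proteins, 1 was at least 2-fold higher in VSMCs and none in mcPCs, from Pbxip1 with -1.58 to Pknox2 with 0.90.

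The order of abundance differed between the cell types. In mcPCs the order by TPM was Zic1 with 67.5 TPM, Foxs1 with 47.5, Nr2f2 with 36.6, Nr2f1 with 33.0, Pbx2 with 32.4, Meis3 with 31.7 and Tbx2 with 30.1 TPM. In VSMCs it was Tbx2 with 454 TPM, Prrx1 with 382, Nr2f2 with 243, Foxs1 with 233, Ebf1 with 193, Zic1 with 187 and Mef2d with 184 TPM. With means alone, neighbours in these orders cannot be told apart beyond sample spread. Of the 20 members with the highest TPM in each cell type, 12 were shared. Such an overlap was not counted for other sets of genes. Myocd, Srf, Mef2a, Mef2c, Tead3, Foxc2, Foxo3 and Tbx3 were among the 20 in VSMCs alone, and Sox13, Tbx18, Tead2, Snai1, Foxo4, Nr2f6, Zic2 and Zic4 in mcPCs alone.

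Zic1 (ENSRNOG00000014644), a zinc finger gene of the dorsal neural tube and meninges, had 187 TPM in VSMCs against 67.5 TPM in mcPCs and a log2 ratio of 0.34 (95% counting interval 0.32 to 0.36), or -1.47 in TPM as it stands and -0.22 in counts scaled to the same total. It lay above 94.4% of the listed genes in VSMCs and 96.5% in mcPCs, and held 79.1% and 72.2% of the summed ZIC TPM. The NR2F genes encode orphan nuclear receptors, and Nr2f2 is known for venous identity. Nr2f2 (ENSRNOG00000010308) had 243 and 36.6 TPM and a log2 ratio of -0.92, and Nr2f1 64.8 and 33.0 TPM and a log2 ratio of 0.85, so the share of Nr2f1 in the NR2F sum was 18.6% in VSMCs and 39.5% in mcPCs. Ebf1 had 193 and 25.8 TPM and a log2 ratio of -1.11 (95% counting interval -1.14 to -1.08), or -0.89 in counts scaled to the same total without erythrocyte genes, which is short of 2-fold. Ebf3, whose promoter is shown above, had 1.72 and 0.0214 TPM and a log2 ratio of -4.45 (95% counting interval -5.31 to -3.96), from 6.72 reads per mcPC sample. Of the 6 NR2F partners, 1 was at least 2-fold higher in VSMCs and none in mcPCs, from Rxra with -1.41 to Rxrb with -0.30.

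**Figure D3:**
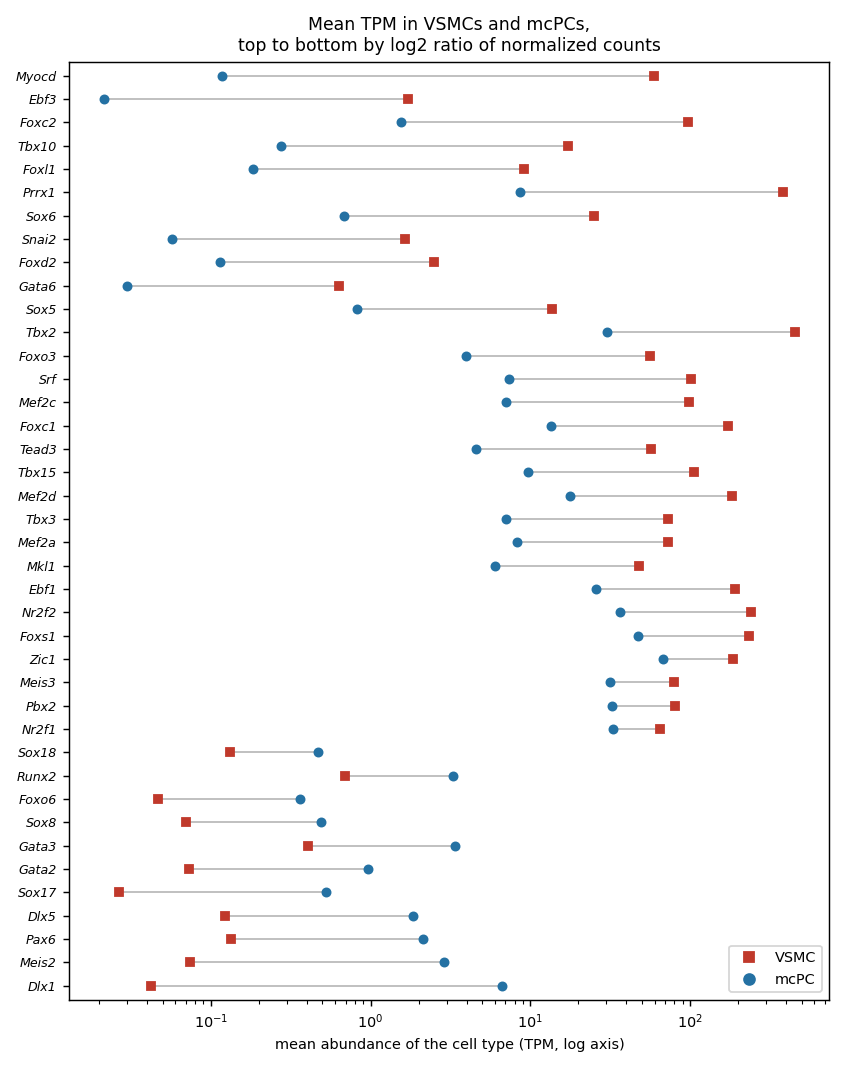
Squares give the authors' mean TPM in VSMCs and circles that in mcPCs, on a log axis, for members with at least 50 TPM, Srf and its coactivators and the lowest and highest log2 ratios. Genes run from Myocd (59.6 and 0.117 TPM) at the top to Dlx1 (0.0420 and 6.68 TPM) at the bottom.

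SOXD genes, which lack a transactivation domain and act with partners, separated clearly. Sox6 had 24.9 TPM in VSMCs against 0.682 TPM in mcPCs, with a log2 ratio of -3.32 (95% counting interval -3.47 to -3.18), and Sox5 had 13.7 and 0.825 TPM with a log2 ratio of -2.30. Sox13 had 40.8 and 26.8 TPM and a log2 ratio of 1.2 (95% counting interval 1.17 to 1.23), or -0.60 in TPM as it stands. Sox13 thus held 51.4% of the SOXD TPM in VSMCs and 94.7% in mcPCs, and its log2 ratio exceeded that of Sox6 by 4.52 (95% counting interval 4.37 to 4.67).

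The RUNX and SNAI families also held members of opposite direction. Runx1, known from blood cell development, had 16.5 TPM in VSMCs against 2.26 TPM in mcPCs, with a log2 ratio of -1.10. Runx2 (ENSRNOG00000020193), known from bone formation, had 0.694 and 3.30 TPM and a log2 ratio of 4.03 (95% counting interval 3.90 to 4.18), from 153 and 1321 reads per sample. The share of Runx2 in their sum was 4.03% in VSMCs and 59.3% in mcPCs. Their common partner Cbfb had a log2 ratio of 0.70, and of 4 RUNX partners 1 was at least 2-fold higher in VSMCs, Yap1 with -2.77, and none in mcPCs. The corepressor gene Runx1t1 had 5.52 and 0.479 TPM and a log2 ratio of -1.74.

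Snai1 and Snai2 encode repressors of epithelial genes. Snai1 had 9.92 TPM in VSMCs against 13.7 TPM in mcPCs and a log2 ratio of 2.27 (95% counting interval 2.20 to 2.36), and was the only member with at least 5 TPM in VSMCs whose TPM was the higher in mcPCs. Snai2 had 1.65 and 0.0574 TPM and a log2 ratio of -3.03, from 7.74 reads per mcPC sample. Of 4 genes listed as SNAI targets and partners, 1 was at least 2-fold higher in VSMCs, Zeb2 with -1.23, and 1 in mcPCs, Cdh1 with 4.01, at 0.121 and 0.578 TPM. Twist1 had 8.03 and 3.57 TPM and a log2 ratio of 0.66, or -1.15 in TPM as it stands, and none of the TWIST symbols passed 2-fold, Twistnb (log2 ratio -0.08) included. Among 8 basic helix-loop-helix partners, 4 were at least 2-fold higher in VSMCs, all of them ID genes, from Id3 with -4.45 (913 and 12.2 TPM), and none in mcPCs, with Tcf3 the highest at 0.98.

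The GATA genes differed in direction. Gata3 (ENSRNOG00000019336) had 0.405 TPM in VSMCs against 3.37 TPM in mcPCs and a log2 ratio of 4.77 (95% counting interval 4.56 to 5.11), from 40.1 and 601 reads per sample. Gata2, a gene of blood and endothelial cells, had 0.0726 and 0.963 TPM and a log2 ratio of 5.35. Gata6, a GATA gene of smooth muscle and heart, went the other way with 0.636 and 0.0300 TPM and a log2 ratio of -2.42 (95% counting interval -3.69 to -1.76), from 3.67 reads per mcPC sample. In TPM relative to the median gene Gata6 was at -0.78, short of 2-fold. Of 5 GATA partners, 1 was at least 2-fold higher in VSMCs, Zfpm2 with -4.07, and 2 in mcPCs, Zfpm1 with 3.32 and Lmo2 with 5.35. Lmo2 was also the highest of 5 LIM homeodomain partners, of which 1 was at least 2-fold higher in VSMCs, Ldb2 with -2.30, and 2 in mcPCs.

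**Figure D4:**
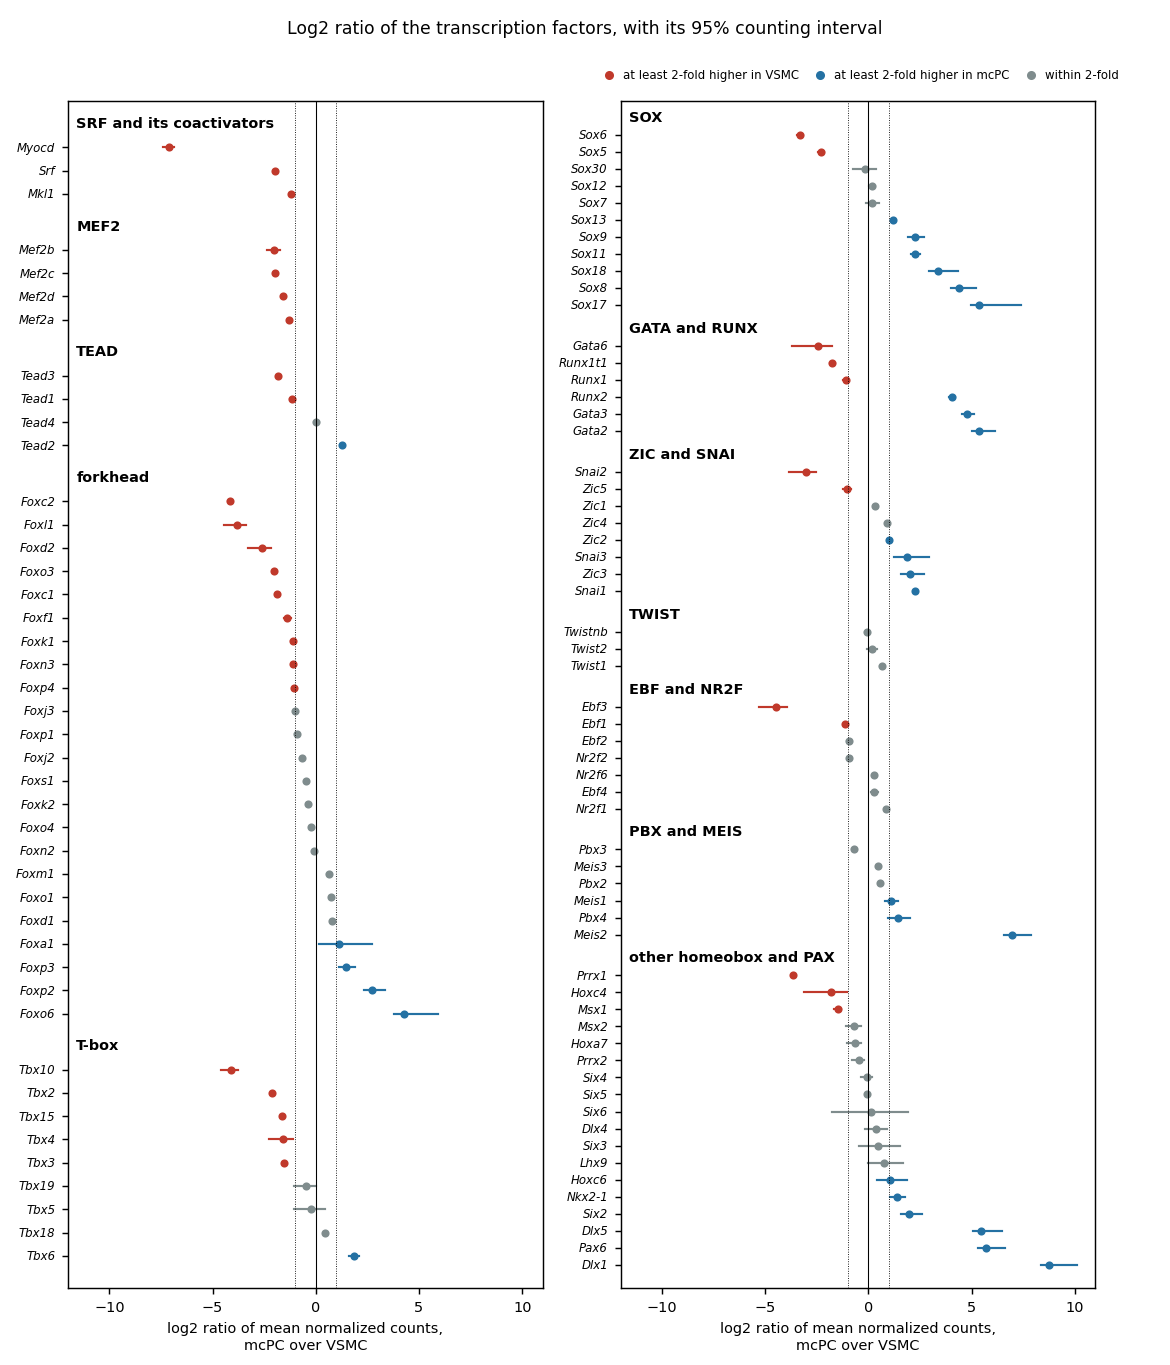
Points are the log2 ratio of mean normalized counts, mcPCs over VSMCs, of the members by family, without 3 that are not reported here, and lines the 95% counting interval, with 2-fold limits dotted. The MEF2 and SRF genes lie on the VSMC side alone, while the TEAD, SOX, GATA and RUNX, and homeobox genes spread to both sides, from Myocd at -7.12 to Dlx1 at 8.76.

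The highest log2 ratio of all members was that of Dlx1 (ENSRNOG00000001520), a homeobox gene of GABAergic interneurons. It had 0.0420 TPM in VSMCs, from 4 reads per sample, and 6.68 TPM in mcPCs, from 1258 reads per sample. The log2 ratio was 8.76 (95% counting interval 8.36 to 10.1). In mcPCs Dlx1 lay above 66.1% of the listed genes. Its relative Dlx5 had 0.122 and 1.84 TPM and a log2 ratio of 5.44, and Pax6, a paired-box gene of neural progenitors, 0.133 and 2.13 TPM and a log2 ratio of 5.68. With Meis2, these forebrain factors were among the highest log2 ratios, each resting on at most 7.67 reads per VSMC sample.

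Markers of immature neurons were higher in mcPCs as well. Of 10 such genes, 6 had a row, and all 6 were at least 2-fold higher in mcPCs. Dlx1, Dlx5 and Sox11 are among these genes, and the other three, Tubb3, Dcx and Cd24, summed to 0.466 TPM in VSMCs against 26.6 TPM in mcPCs. Tubb3 had 0.131 and 15.7 TPM and a log2 ratio of 8.53. Markers of mature neurons with a row (3 of 6) summed to 2.99 and 6.75 TPM, and Snap25, Gad1 and Gad2 were each at least 2-fold higher in mcPCs. Astrocyte markers (4 of 6 with a row, all higher in mcPCs) summed to 0.582 and 15.7 TPM, and oligodendrocyte lineage markers (7 of 9 with a row, 6 higher in mcPCs) to 11.4 and 14.1 TPM. The part of these cells in the levels of Dlx1, Dlx5, Pax6, Meis2, Sox8 and Sox11 was not tested. Sox8 had 0.0702 TPM in VSMCs against 0.492 TPM in mcPCs and a log2 ratio of 4.39. Sox11 had 1.24 and 1.71 TPM and a log2 ratio of 2.26.

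Sox17 and Sox18, which are endothelial genes, were low in both cell types. Sox17 had 0.0266 TPM in VSMCs against 0.525 TPM in mcPCs and a log2 ratio of 5.37 (95% counting interval 4.98 to 7.38), from 2.33 and 77.3 reads per sample. Sox18 had 0.132 and 0.466 TPM and a log2 ratio of 3.40, whereas Sox7 had a log2 ratio of 0.19 with an interval that includes 0. Endothelial markers with a row (10 of 12) were at least 2-fold higher in mcPCs for 7 genes and in VSMCs for none. Leaving out Esam, which was at 487 and 184 TPM, they summed to 12.5 TPM in VSMCs against 27.6 TPM in mcPCs, of which Cldn5 held 15.4 TPM in mcPCs. Among 5 endothelial transcription factors outside the families described, 3 were at least 2-fold higher in mcPCs, Fli1 with 4.98, Lmo2 with 5.35 and Lef1 with 2.26. The part of endothelial cells in the levels of Sox17, Sox18 and Gata2 was not tested.

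Blood and immune cell markers were higher in mcPCs too. All 3 blood leukocyte markers with a row, of 10, and all 6 microglia and macrophage markers with a row, of 10, were at least 2-fold higher there, with sums of 1.58 and 154 TPM and of 0.893 and 12.4 TPM in VSMCs and mcPCs. The part of blood and immune cells in the levels of Runx2, Gata3, Gata2 and Foxp3 was not tested. Foxp3 had 0.437 TPM in VSMCs against 0.333 TPM in mcPCs and a log2 ratio of 1.45, or -0.31 in TPM as it stands. Of 8 fibroblast and meningeal markers, 7 had a row, 5 were higher in mcPCs, and Foxc1 alone was at least 2-fold higher in VSMCs. The 6 that are not members of the families here summed to 168 TPM in VSMCs against 217 TPM in mcPCs, of which Slc6a13 held 3.06 and 132 TPM. The other 5 summed to 165 and 85 TPM, of which Col1a1, with a log2 ratio of -0.13, held 114 and 31.6 TPM. In normalized counts 4 of these 5 were at least 2-fold higher in mcPCs, with a median log2 ratio of 1.61. Of 5 ependymal and choroid plexus markers 2 had a row, summing to 1.12 and 0.428 TPM, and Foxj1, the forkhead gene of ciliated cells, had none.

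Of 5 pan-mural markers, 2 were at least 2-fold higher in VSMCs, Notch3 with -1.31 and Mcam with -1.11, and 1 in mcPCs, Pdgfrb with 1.17, and their median log2 ratio was -0.19. The Notch genes and effectors of the mural lineage were at least 2-fold higher in VSMCs for 3 of 6 and in mcPCs for none, from Hes1 with -3.19 to Heyl with -0.24. Over all lists of partners and targets together, 39 of the 81 genes with a row that are not members were at least 2-fold higher in VSMCs and 5 in mcPCs, beside 13.8% and 21.6% of all genes. The lists hold partners, regulators and targets of the transcription factor families, with the Notch genes. Those higher in VSMCs included 3 of 7 further SRF cofactors, 11 of 12 SRF and myocardin targets and 5 of 5 immediate-early genes.

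**Figure D5:**
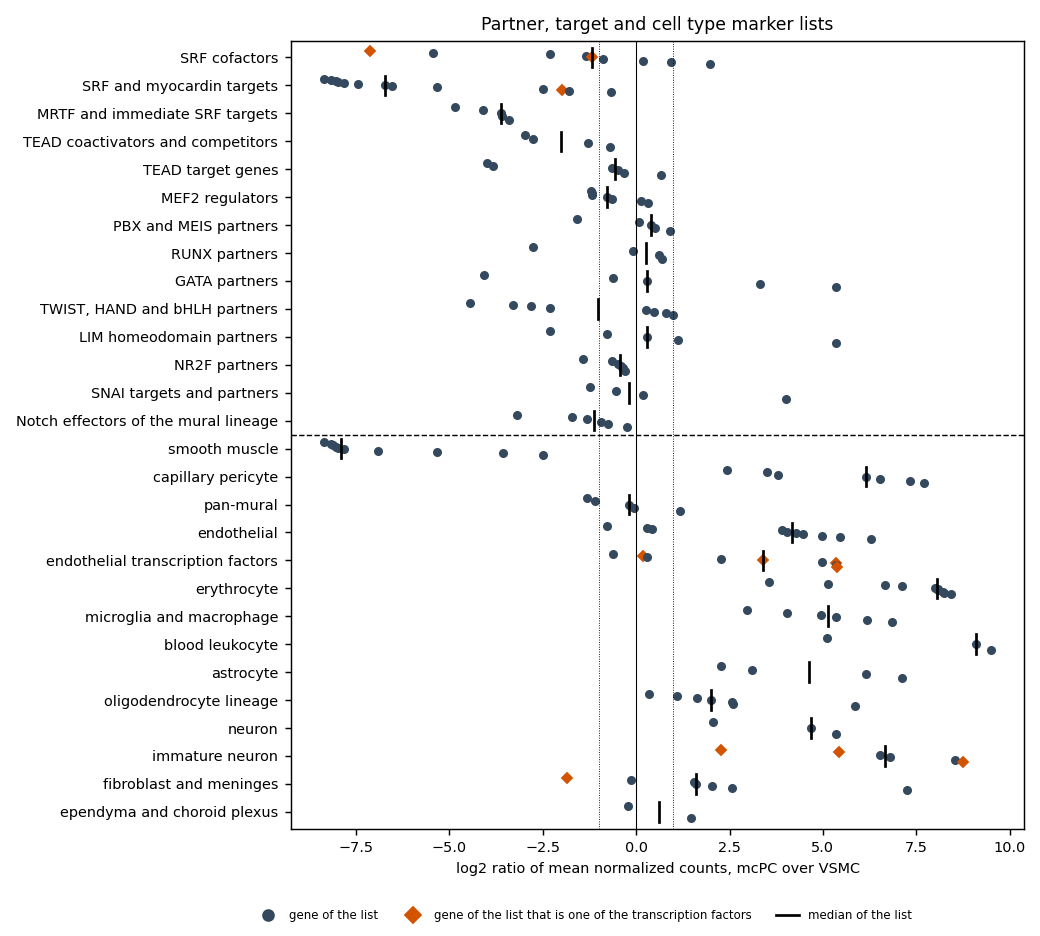
Points are genes of each list by log2 ratio of mean normalized counts, mcPCs over VSMCs, with diamonds for genes that are members and a bar at the median. Partner and target lists stand above the dashed line and cell type markers below it. Medians on the mcPC side include capillary pericytes (6.17), blood leukocytes (9.10), erythrocytes (8.05), immature neurons (6.66), microglia and macrophages (5.15) and endothelial cells (4.16). Dlx1, Dlx5 and Sox11 are themselves genes of the immature neuron list.

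Sparse members were uncertain. Of the 105 members, 28 were under 0.8 TPM in both cell types, 14 had fewer than 10 reads per sample in VSMCs and 10 in mcPCs. The counting interval included 0 for 13 members, among them Six4, Six5, Six6, Tead4, Twist2, Tbx5 and Lhx9. Not all of them were sparse. Six5, with 2270 reads per VSMC sample and 1155 per mcPC sample, had a narrow interval around a ratio near 0. The lowest of them in reads was Six6 with 3 and 1.67 reads per sample. On each of 6 scales of the comparison, 31 members were at least 2-fold higher in VSMCs and 12 in mcPCs. The latter included Dlx1, Meis2, Pax6, Dlx5, Sox17, Gata2, Gata3, Sox8, Foxo6, Runx2 and Sox18. The same count on every scale was not made over all genes. On single scales, 13.3% to 72.3% of all genes were at least 2-fold higher in VSMCs and 7% to 22.4% in mcPCs. Zic1, Nr2f1, Meis3, Pbx2, Tbx18, Sox13 and Tead2 were higher in mcPCs in normalized counts and lower there in TPM as it stands.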

How the data were processed

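RNA-Seq was made from 3 VSMC and 3 mcPC samples, which the paper describes as 3 independent experiments. The sample titles carry the letters DN, DL or DK, with 1 sample of each cell type for each. They do not say what the letters stand for. Reads were quantified by the authors with Salmon (version 0.8.0) against Ensembl transcripts of Rnor_6.0 and summed to genes, and only genes detected in every sample were kept. The deposited table is the one before the study's filter on contaminating transcripts. It gives the authors' mean TPM of each cell type, and the authors' mean estimated count, a mean per sequencing run. Reads per sample were obtained here as that mean times 4 runs. The deposited normalized counts (DESeq2 scaling) are signal values, given as means of a cell type, and so are the effective lengths. Further columns hold the authors' log2 fold changes, standard errors and p-values, and were not used. Since all values used are means of a cell type, no test over samples was run and no SD is given.

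The log2 ratio was computed from the mean normalized counts of mcPCs over VSMCs plus a pseudocount of 1. Its 95% interval (exact binomial, Clopper-Pearson) was computed without the pseudocount from reads summed over the samples of a cell type, and covers counting error only. Intervals of a difference between paralogs used the Poisson error of the 4 read sums. Over the 12 runs of a cell type, 69.8% of genes in VSMCs and 71.5% in mcPCs came to whole reads within 0.01. A ratio of at least 2-fold was counted without a test. Other scales were TPM with a pseudocount of 0.1, as it stands or relative to the median gene, normalized counts relative to the median gene, and counts scaled to the same total, with all genes or without erythrocyte genes and the 15 genes of highest ratio.

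Members and lists were chosen with earlier results of these data known. Full values were planned for Srf and its coactivators, the member of highest TPM in each family, the 12 highest and 12 lowest log2 ratios at a mean normalized count of at least 10, members with at least 50 TPM, symbols that are not transcription factors, and the ends of each pathway list. Paralogs set against each other, and other members with full values, were chosen after their values were seen. Values of 3 members are not reported here. Promoters came from the RefSeq table of GRCr8. The computation was tested on simulated counts. Versions were 3.11.15 for Python, 2.4.6 for numpy, 2.3.3 for pandas, 1.17.1 for scipy and 3.10.9 for matplotlib.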

Additional observations from a re-analysis of the deposited data

How the results depend on the processing

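The scale, the fold and a minimum level in VSMCs moved the counts. In TPM as it stands, which lowers the median gene to -1.72 on the log2 scale, 68 members were at least 2-fold higher in VSMCs and 12 in mcPCs, in place of 36 and 30, where 72.3% and 7% of all genes were. The members' median log2 ratio was -1.61. On that scale 9 members past 2-fold had the opposite direction, among them Sox13 with -0.60, Tead2 with -0.53 and Nkx2-1 with -0.30. The members' median was 0.11 in TPM relative to the median gene and -0.66 in counts scaled to the same total. With a fold of 4 the numbers were 14 and 17, and with at least 0.8 TPM in VSMCs 6 members were higher in mcPCs. Both numbers stayed within 1.5 times under the other settings run. Log2 ratios of the 52 members chosen for full values were also taken under the other scales and pseudocounts. Of these values, 215 moved by less than the counting interval and 147 by more. Another 2, those of Sox13 and Nkx2-1 in TPM as it stands, were past 2-fold and changed sign. The 147 include ratios within 2-fold that changed sign, such as those of Zic1, Nr2f1, Meis3 and Pbx2 in TPM as it stands. Leaving out each replicate was not run. No paired analysis was possible because the values used here are means of a cell type. Depth limits members with few reads per sample, and their spread between samples is not known.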
